A study of Sus scrofa with 180 samples.

Results

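Transcripts of the mitochondrial genome were read by 12 probes named for 7 of its genes. The arrays covered 2 muscles of 90 pigs, the Longissimus (LM) and the Semimembranosus (SM). The genes are MT-ND3, MT-ND4, MT-ND5 and MT-ND6, which encode subunits of complex I of the respiratory chain, and MT-CO1, MT-CO2 and MT-CO3, which encode the catalytic core of complex IV (cytochrome c oxidase). The members are all probes that the 2 gene tables of the study name with one of these 7 symbols, out of 3481 genes named there, and the tables served only to tie a probe to its gene. All 12 probes were listed by the study among those higher in SM on these same arrays, so the difference between the muscles is given here as a description, and nothing is read from the number of probes that pass a test of it. The copy of that list used here holds only its first part, so further probes of these genes may not be covered.

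The pigs, of both sexes, came from an intercross over 2 generations between 2 commercial sire lines, a Pietrain type line and a synthetic line with Duroc, Large White and Hampshire founders and formed 2 half-sib families. All were homozygous wild type at the HAL and RN loci (NN and rn+rn+), and both muscles were sampled with a trocar from the superficial region soon after slaughter at a commercial weight. There were 90 arrays of LM and 90 of SM, each of 1 muscle of 1 pig, labelled with a single dye (Cy3), and the labels tie the 2 muscles of a pig through its number. Sex, sire family and slaughter batch are not in the labels, and the muscle samples hold all cell types of the tissue, so that fewer cells of a type and less RNA per cell cannot be told apart. The LM arrays lay on 21 slides and the SM arrays on 14, and 0 slides held both muscles, so slide and muscle cannot be told apart. The median processed signal of an array ranged from 171 to 304 in LM (median 216) and from 105 to 252 in SM (median 170). Of the fibre markers ACTA1, CKM, MYH1, MYL1 and PVALB, all 6 probes were well above background on every array.

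The mitochondrial genome encodes core subunits of complexes I, III, IV and V, while all other subunits, and those of complex II, come from nuclear genes. Both of its strands are transcribed into long precursor RNAs that are cut into the single transcripts. MT-ND6 is the only protein gene read from the light strand, and its transcript is poor in C and rich in G, the reverse of the other protein transcripts. Muscle fibres that rely on respiration hold many mitochondria.

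The sequences of 5 probes are shown because the results below turn on the strand and composition of the probes of ND4, ND5 and ND6. They are printed from the 5′ end, with G in capitals, since the share of G tells the strands of this genome apart.
ND6 probe BM658590.1_281: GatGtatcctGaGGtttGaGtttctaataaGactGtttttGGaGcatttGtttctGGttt
ND6 probe CB469954.1_391: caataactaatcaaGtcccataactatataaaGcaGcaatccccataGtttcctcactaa
ND5 probe AW315751.1_53: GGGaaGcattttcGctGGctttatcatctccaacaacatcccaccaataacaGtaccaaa
ND4 probe CB826600.1_56: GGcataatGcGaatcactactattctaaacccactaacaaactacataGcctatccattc
ND4 probe CK451833.1_75: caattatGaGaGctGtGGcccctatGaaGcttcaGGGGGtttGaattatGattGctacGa

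Both probes of ND6 are 60 bases long, and they have opposite compositions. BM658590.1_281 holds 15 G and 6 C and is called the G-rich ND6 probe here. CB469954.1_391 holds 4 G and 17 C and is called the C-rich ND6 probe. Read with the vertebrate mitochondrial code, the C-rich probe had 0 of its 3 frames free of a stop codon as printed and 1 on its reverse complement, as a sequence antisense to a coding sequence would. The G-rich probe had 1 open frame on each strand, so its frames did not settle its strand. The 2 probes of ND4 also differed, with 5 G and 18 C in CB826600.1_56 and 17 G and 10 C in CK451833.1_75. The C-rich ND4 probe had 2 open frames as printed and 0 on its reverse complement, and the G-rich one had 1 on each. The ND5 probe held 8 G and 18 C. ND5 and ND6 are neighbours in the mitochondrial genome. No 2 of the mitochondrial probes shared 16 bases on either strand.

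All 12 probes had a higher mean in SM than in LM after each array was centred on its median, and the direction was the same under every scaling tried, although the size of the difference depended on the centring. The values are log2 of the processed signal minus the array median, and they are not compared between probes. Differences of LM minus SM ran from -0.77 to -0.32 with a median of -0.51, beside -0.07 over all 10987 probes tested. By limma with Benjamini-Hochberg adjustment over all probes, all 12 were called higher in SM, as were 47.7% of all probes. The ranges of the 2 muscles overlapped for all 12 probes.

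Among the subunits of complex I, the ND3 probe had means of 2.35 ± 0.61 in LM and 2.97 ± 0.58 in SM (SD over 90 arrays each), and was higher in SM in 81 of 90 pigs. Its processed signal had a lowest value of 987, a median of 2561 and a highest of 7091 in LM, and of 1163, 3578 and 7069 in SM. The upper ends of the 2 muscles were thus close, while the middle of SM lay above that of LM. The ND5 probe had means of 4.26 ± 0.46 in LM and 4.58 ± 0.45 in SM (SD, n = 90 each), higher in SM in 71 of 90 pigs. Its processed signal ran over 5030, 10514 and 19701 in LM and over 4724, 10329 and 23279 in SM as lowest, median and highest. The uncentred medians of ND5 were therefore nearly equal.

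The 2 probes named for ND4 had differences of -0.49 (C-rich) and -0.35 (G-rich) but unlike spreads. The frames of the G-rich one did not settle its strand, so the 2 need not read the same transcript. The C-rich ND4 probe had 4.66 ± 0.24 in LM (SD, n = 89) and 5.16 ± 0.23 in SM (SD, n = 90), and was higher in SM in 83 of 89 pigs. The G-rich ND4 probe had 0.62 ± 0.48 in LM and 0.98 ± 0.79 in SM (SD, n = 90 each), and was higher in SM in 69 of 90 pigs. Its processed signal was lowest at 455, had a median of 913 and was highest at 1394 in LM, against 294, 892 and 2121 in SM, so SM held both the dimmest and the brightest arrays.

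The G-rich ND6 probe showed the largest difference among the 12, with -1.33 ± 0.68 in LM and -0.56 ± 0.82 in SM (SD, n = 90 each). Its processed signal was lowest at 96, had a median of 201 and was highest at 437 in LM, against 89, 294 and 858 in SM. The C-rich ND6 probe had 4.10 ± 0.52 in LM and 4.66 ± 0.56 in SM (SD, n = 90 each), and was higher in SM in 82 of 90 pigs, against 76 of 90 for the G-rich probe. Both probes named for ND6 therefore had the same direction between the muscles. The frames of the C-rich probe were as in a sequence antisense to a coding sequence. Those of the G-rich probe did not settle its strand. The probes need not read the same transcript, so their shared direction is not a repeated reading of ND6.

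Of complex IV, the 4 probes of CO1 differed from LM to SM by -0.73 (BI336814.1_190), -0.57 (BE234004.1_3), -0.53 (BG695751.1_27) and -0.37 (AW359405.1_100). The probe with the largest of these had a processed signal of 11681, 28880 and 56418 in LM as lowest, median and highest, and of 15793, 42004 and 89888 in SM. That with the smallest had 86504, 157681 and 330594 in LM and 75327, 165784 and 262798 in SM, and 2 of its LM spots were saturated. The CO1 probe BE234004.1_3 had 1 saturated LM spot, and the other 10 probes had none. The CO2 probe had 3.38 ± 0.60 in LM and 3.85 ± 0.63 in SM, and the CO3 probe 3.20 ± 0.52 in LM and 3.52 ± 0.46 in SM (SD, n = 90 each). CO2 was higher in SM in 72 of 90 pigs and CO3 in 67 of 90.

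**Figure D1:**
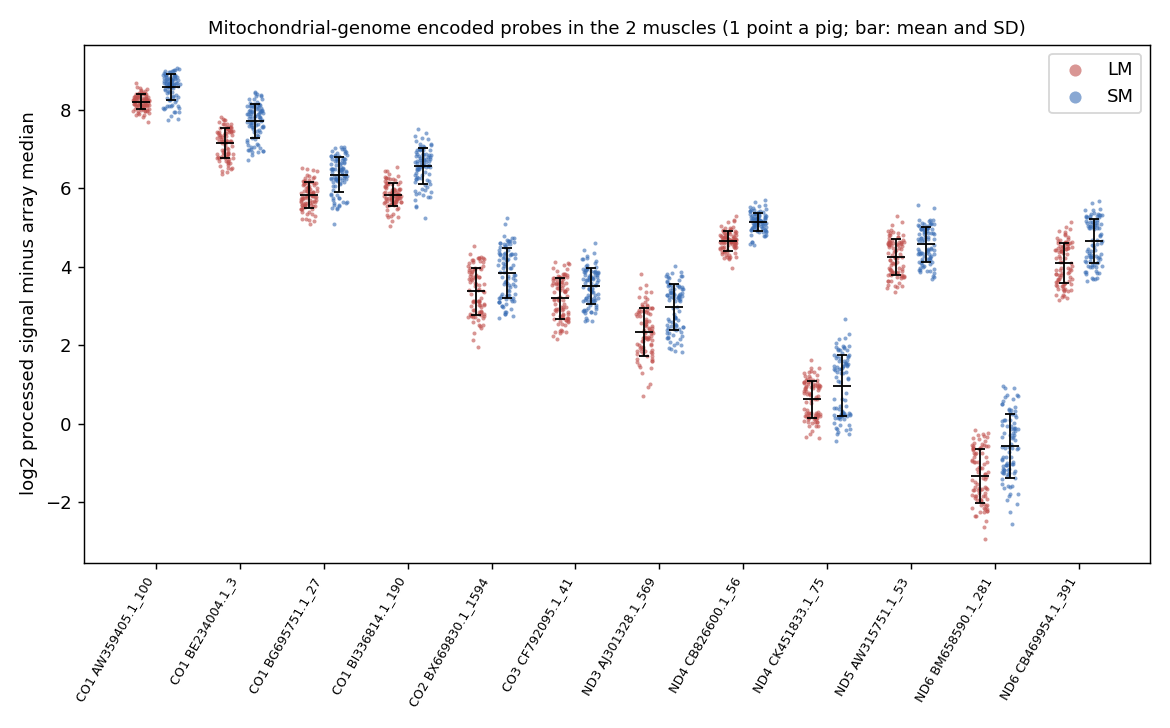
Level of each of the 12 mitochondrial probes (x axis) in LM (red) and SM (blue), as log2 processed signal minus the array median (y axis), with 1 point a pig and bars for mean and SD. The SM mean lies above the LM mean for all 12 probes, and the ranges of the muscles overlap for all of them.

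Without any centring, the differences of the 12 probes shrank to between -0.46 and -0.01 with a median of -0.21. The median of all probes then stood at 0.22 (LM minus SM), since the SM arrays were dimmer, and the share of all probes called higher in SM against LM moved from 47.7% against 35.7% to 20.2% against 60.2%. Relative to the median of all probes, the member differences ran from -0.70 to -0.25 with centring and from -0.69 to -0.23 without it. Why the SM arrays were dimmer was not tested. An index of base composition, the level of probes with at least 8 C among their 15 leading bases over that of probes with at most 2, had a median of -0.37 in LM and 0.36 in SM. With that index as a covariate the difference of the G-rich ND4 probe became -0.01 and that of CO3 -0.10.

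**Figure D2:**
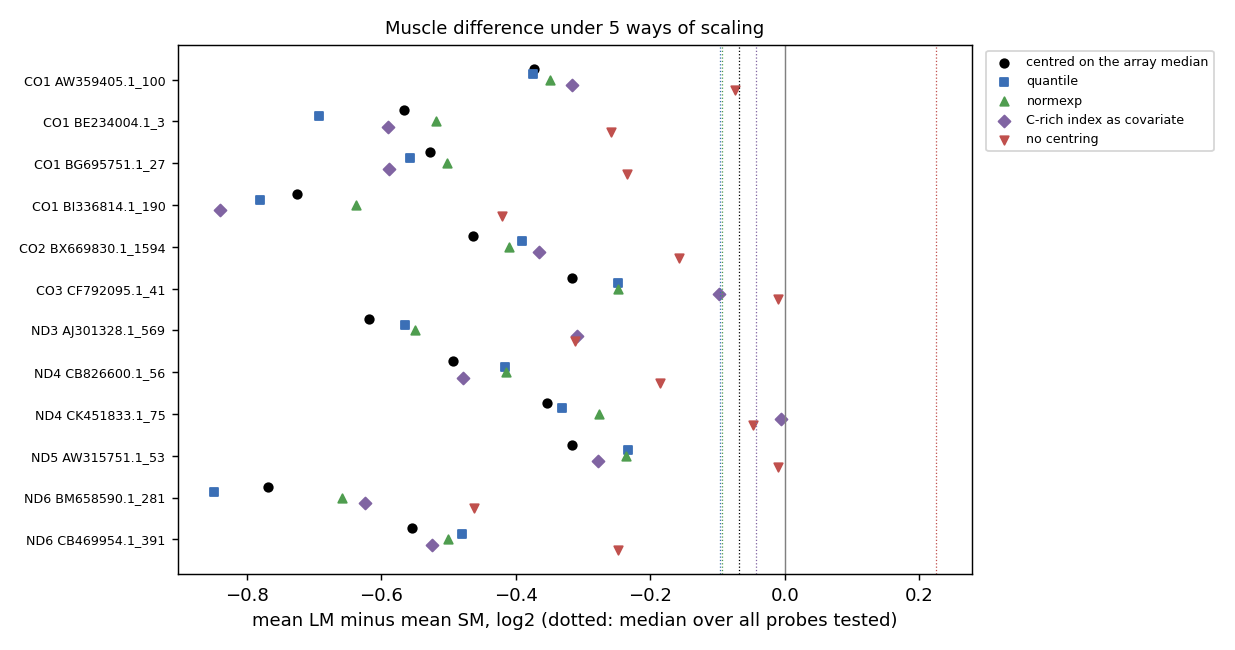
Mean of LM minus mean of SM on the log2 scale (x axis) for each of the 12 probes (y axis) under 5 ways of scaling, with a dotted line at the median of all probes under each. All marks lie below 0, and without centring (red) they run from -0.46 to -0.01 while the median of all probes lies at 0.22.

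The tables also name 6 probes of other mitochondrial genes, MT-ND2 and MT-ND4L of complex I and MT-CYB, the only subunit of complex III from this genome. They too were listed by the study as higher in SM, with differences of LM minus SM from -0.55 to -0.33, inside the range of the 12 probes.

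The levels in the 2 muscles of a pig were related for most of the 12 probes when all pigs were pooled, a measure that the choice of members did not use, and for 0 of 12 once slide means were subtracted. With the pigs pooled, 9 of 12 had a positive correlation of LM with SM over the pigs at an adjusted p of 0.05 or less (p of Pearson r, Benjamini-Hochberg over all 10987 probes), beside 1.38% of all probes. The median r over all probes was 0.07, with 5th and 95th percentiles of -0.14 and 0.28. For 5 probes the pigs fell into a low and a high group in both muscles, by the lower Bayesian information criterion of a mixture of 2 normal distributions. For these no pooled r is given, although all 5 are among the 9. Any gain over 0 in the criterion counted. It was 16.1 in LM and 39.5 in SM for the G-rich ND4 probe, and 11.1 and 18.7 for the C-rich ND6 probe. Gains were smaller for CO1 BE234004.1_3 (3.8 and 6.8), CO2 (5.6 and 2.4) and ND5 (1.9 and 4.2). The permutation p below treat the pigs as exchangeable and so leave out the slides and the sire families. The p of Pearson r leave them out as well.

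Among the 7 other probes, r over the pigs was 0.61 for ND3, 0.61 for CO3, 0.47 for the G-rich ND6 probe and 0.39 for CO1 AW359405.1_100. These probes were not free of a split, as the mixture of 2 had the lower criterion in LM or in SM but not in both. The gain was 16.7 in SM for ND3, 16.7 in SM for CO1 AW359405.1_100, 5.6 in LM for the G-rich ND6 probe and 4.4 in LM for CO3. For CO1 BG695751.1_27 it was 1.7 in SM. For ND3, Spearman's rho was 0.63, both permutation p were 1e-05, the smallest that 100000 resamples can give, and r was 0.61 without the 2 pigs farthest from the LM median. CO3 had a rho of 0.61, the same permutation p of 1e-05 for both, and an r of 0.59 without 2 pigs. The G-rich ND6 probe had a rho of 0.47 (permutation p 2e-05 for r and 1e-05 for rho) and an r of 0.49 without 2 pigs. CO1 AW359405.1_100 had a rho of 0.48 (permutation p 0.00026 for r and 4e-05 for rho, adjusted p 0.025 for r) and an r of 0.41 without 2 pigs, and lost its call under 4 of the alternatives.

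Not past the threshold were CO1 BG695751.1_27 (r 0.28, permutation p 0.0082, adjusted p 0.18), CO1 BI336814.1_190 (r 0.13, permutation p 0.22) and the C-rich ND4 probe (r 0.10, permutation p 0.37). Their rho was 0.30, 0.07 and 0.08, with permutation p of 0.0043, 0.53 and 0.47. Without the 2 farthest pigs r was 0.29, 0.14 and 0.07.

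The G-rich ND4 probe split the pigs most clearly, with fitted centres of 0.13 and 1.00 in LM and of 0.18 and 1.63 in SM. In LM 52 pigs and in SM 49 pigs were in its high group, and 81 of 90 pigs were on the same side in both muscles. For the C-rich ND6 probe 77 of 90 pigs were on the same side, for CO2 74 of 90, for ND5 72 of 90 and for CO1 BE234004.1_3 59 of 88. The relation of the muscles within the groups cannot be tested, since the groups were cut on the same LM and SM values.

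**Figure D3:**
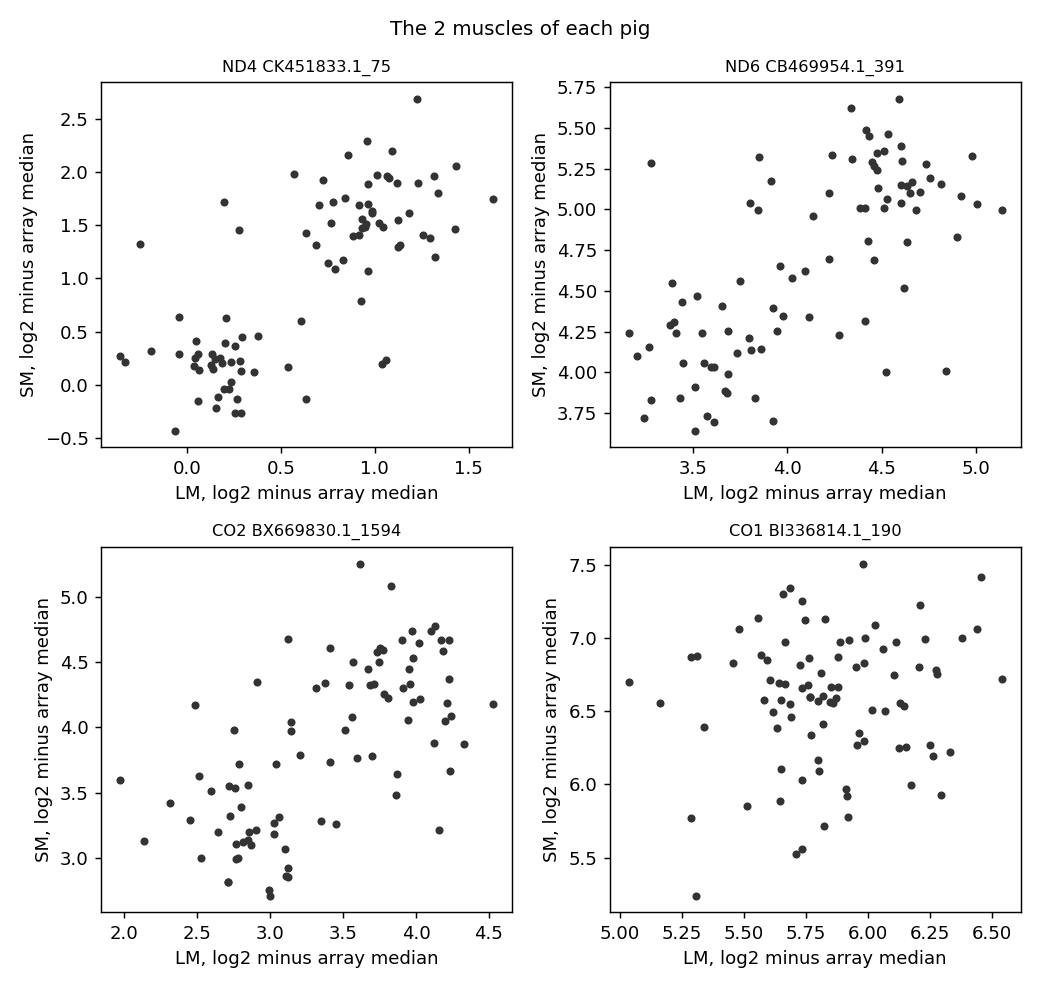
Level in SM (y axis) against level in LM (x axis), both as log2 processed signal minus the array median, for 4 probes with 1 point a pig. The G-rich ND4 probe (CK451833.1_75) falls into a low and a high group with 81 of 90 pigs on the same side in both muscles, the C-rich ND6 probe (CB469954.1_391) and CO2 have 77 and 74 of 90 pigs on the same side, and CO1 BI336814.1_190 shows r of 0.13.

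**Figure D4:**
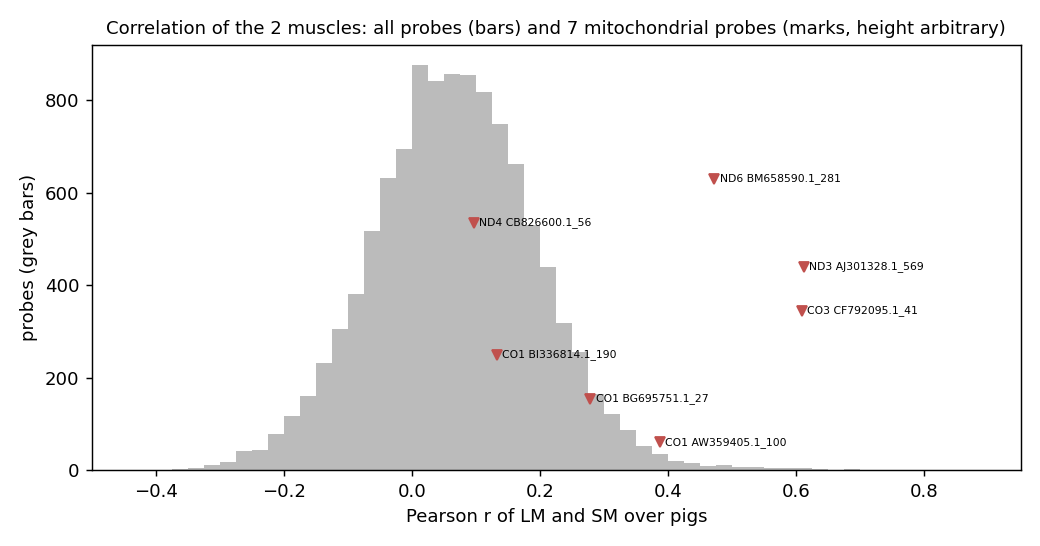
Pearson r of LM with SM over pigs (x axis) for all 10987 probes (grey bars, number of probes on the y axis) and for 7 mitochondrial probes (red marks, height arbitrary). The pigs of these 7 did not form 2 groups in both muscles. The marks run from 0.10 to 0.61, and 4 of the 7 were called after adjustment over all probes.

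The slides of LM sorted the pigs in the same way. Of 20 LM slides with more than 1 array, 17 held pigs of only 1 group of the G-rich ND4 probe, against 1 of 14 slides of SM. The LM slides were smaller, with 90 arrays on 21 slides (at most 7 on a slide) against 90 on 14 (at most 8). A smaller slide holds only 1 group more often, so the 2 counts are not on the same footing. The median share of the variance of the 12 probes that lay between slides was 0.72 for LM values between LM slides, beside 0.38 over all probes. For SM values between SM slides it was 0.08, beside 0.21 over all probes. When the SM values were grouped by the LM slide of the same pig, the share was 0.56, beside 0.27, and it was 0.11, beside 0.13, for LM values grouped by SM slide. Pigs whose LM arrays shared a slide thus had similar levels in SM as well, although their SM arrays lay on other slides.

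With the slide means subtracted in both muscles, r fell to between -0.05 and 0.19 for the 12 probes and 0 of 12 were called by the p of Pearson r, as were 0 of all 10987 probes. At an unadjusted p under 0.05, 0 of 12 and 349 of all probes had a positive r. With the slide means of SM alone subtracted, 9 of 12 were still called, and r was 0.59 for ND3, 0.60 for CO3 and 0.47 for the G-rich ND6 probe. With the means of the 10 LM scan days subtracted from both muscles, r ran from -0.05 to 0.28. The LM scan day held a median share of 0.64 of the variance in LM and of 0.51 in SM for the same pigs. All SM arrays were read by the later version of the scanner software and LM arrays by both. Among pigs whose LM array was read by the earlier and by the later version, r was 0.61 (n = 44) and 0.61 (n = 46) for ND3, 0.57 and 0.61 for CO3, 0.40 and 0.54 for the G-rich ND6 probe, 0.36 and 0.42 for CO1 AW359405.1_100, 0.32 and 0.25 for CO1 BG695751.1_27, 0.21 and 0.10 for CO1 BI336814.1_190, and 0.23 and -0.05 for the C-rich ND4 probe. The version held at most 0.07 of the variance of any of the 12 probes in either muscle. The methods of the study nest the hybridization batch within the sire family. The labels do not name the family. With batches nested in this way, the LM slide and the origin of the pigs cannot be told apart in the LM values. Whether the LM slides divide the pigs by family was not tested. What ties the SM values to the LM slides of the same pigs was not tested.

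Within each muscle most of the 12 probes rose and fell together over the pigs. The median r of the 66 pairs was 0.59 in LM and 0.46 in SM, beside 0.02 and 0.01 for the same probes with all other probes. These r are a description over the pigs, with no test, and the pigs share slides and, for 5 probes, the low and high groups. In LM 54 of 66 pairs were positive and in SM 56, and 60 of 66 had the same sign in both muscles.

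ND3, ND5, CO2, CO3 and the C-rich ND6 probe formed the closest set, with r of 0.85 to 0.98 over their 10 pairs in LM and of 0.83 to 0.98 in SM. The highest r was that of ND5 with the C-rich ND6 probe, 0.98 in both muscles. The 4 CO1 probes had r of 0.59 to 0.89 among themselves in LM and of 0.76 to 0.95 in SM. Their 20 pairs with the first set had r of 0.08 to 0.83 in LM (median 0.64) and of -0.07 to 0.64 in SM (median 0.41). In LM the CO1 probes were thus not apart from the first set, as BE234004.1_3 had r of 0.83 with the C-rich ND6 probe and of 0.64 with CO1 BI336814.1_190, and in SM all pairs within CO1 were above all pairs with the first set. The G-rich ND4 probe followed the first set, with r of 0.74 to 0.80 in LM and of 0.71 to 0.87 in SM. Its r with the C-rich ND4 probe was -0.02 in LM and 0.06 in SM.

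The G-rich ND6 probe ran against the others. Its r was negative with all 11 other probes in LM (median -0.59) and with 8 of 11 in SM (median -0.51). With the C-rich ND6 probe, named for the same gene, r was -0.75 in LM and -0.78 in SM, and with ND5 it was -0.70 in LM and -0.69 in SM. Under the alternatives the r of the 2 ND6 probes ran from -0.77 to -0.33 in LM, where the latter had slide means subtracted, and from -0.81 to -0.75 in SM. Within the low and the high group of the G-rich ND4 probe in the same muscle it was -0.30 (38 pigs) and -0.59 (52 pigs) in LM and -0.58 (41 pigs) and -0.39 (49 pigs) in SM. The r of the G-rich ND6 probe with ND5 was weaker there, with -0.21 and -0.52 in LM and -0.37 and -0.18 in SM, and it was -0.22 in LM and -0.73 in SM with slide means subtracted. The centred level of the G-rich ND6 probe had an r of -0.66 with the median signal of the array in LM and of -0.32 in SM, against 0.42 and 0.14 for the C-rich probe. The part of array brightness in the opposite course of the 2 probes was not tested.

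**Figure D5:**
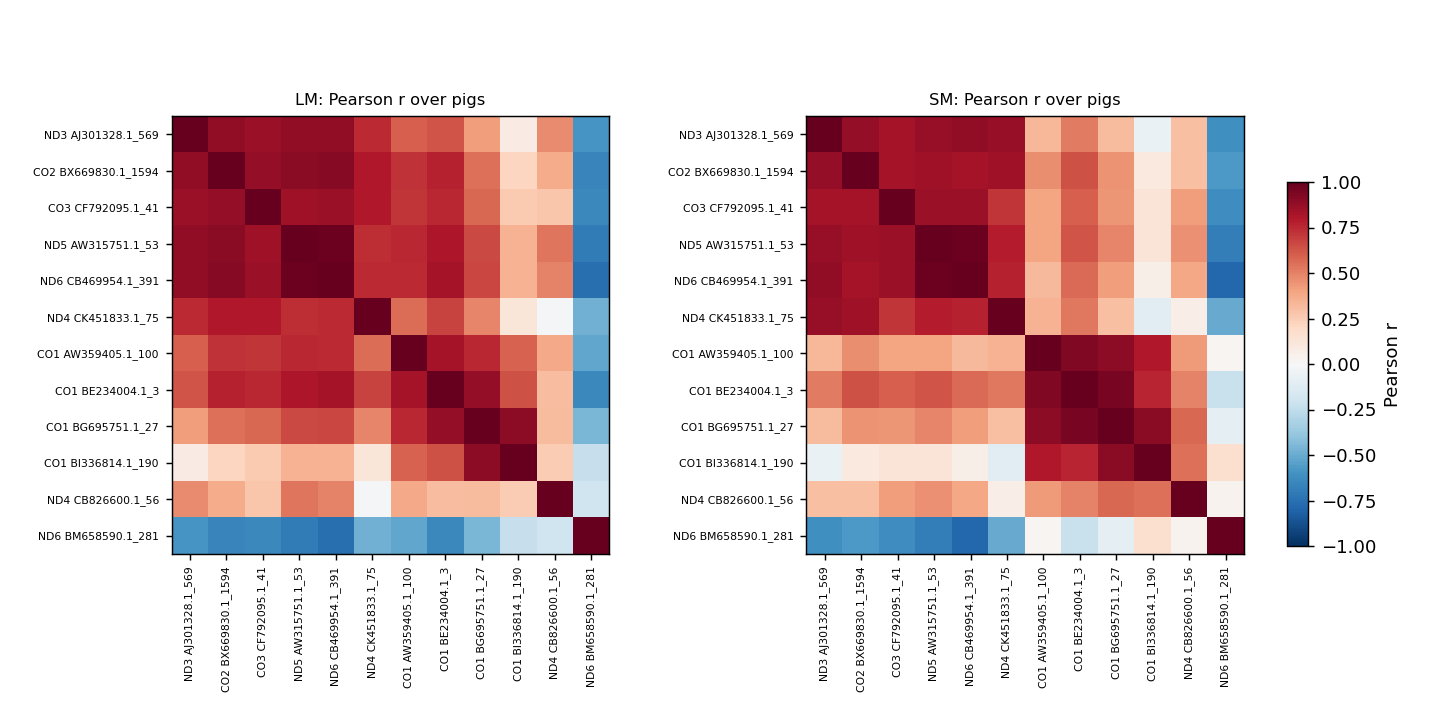
Pearson r over pigs for each pair of the 12 mitochondrial probes in LM (left) and SM (right), from -1 (blue) to 1 (red). ND3, CO2, CO3, ND5 and the C-rich ND6 probe (CB469954.1_391) have r of at least 0.83 with each other, the 4 CO1 probes have r of at least 0.59 with each other, and the G-rich ND6 probe (BM658590.1_281) is negative with all 11 others in LM and with 8 in SM.

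Nuclear genes of the respiratory chain followed the mitochondrial probes more weakly. As the median over the 12 probes of r with each listed probe, the lists of nuclear subunits had medians in LM of 0.17 for complex I (17 probes), 0.26 for complex II (2 probes), 0.21 for complex III (5 probes), 0.06 for complex IV (7 probes) and 0.14 for complex V (7 probes), beside 0.02 over all other probes. In SM they were 0.30, 0.19, 0.31, 0.33 and 0.26, beside 0.01. The lists cover only genes that the tables name, which the study chose as different between the muscles.

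In complex I, NDUFA10 had the highest value in LM (0.65) and NDUFB9 in SM (0.52), and the lowest were NDUFS8 (-0.08) and NDUFAB1 (-0.03). With slide means subtracted in LM, the 2 probes of NDUFA10 had 0.21 and 0.09 and those of NDUFS8 0.35 and 0.19. Of succinate dehydrogenase, complex II, SDHA had 0.35 in both muscles and SDHC had 0.17 in LM and 0.02 in SM. UQCRC1, a core protein of complex III, was the highest of its list in both, with 0.49 in LM and 0.42 in SM, while UQCRC2 (0.03) was lowest in LM and UQCRH (0.03) in SM. Of complex IV, COX7A1, the form of striated muscle, led in LM (0.33) and COX5B in SM (0.46), with COX8A (-0.11, and 0.25 with slide means subtracted) and COX4I2 (0.17) lowest. Of ATP synthase, complex V, ATP5A1 (0.44) led in LM and ATP5D (0.33) in SM, and ATP5I (-0.04, and 0.01 with slide means subtracted) and ATP5E (-0.09) were lowest.

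The 36 probes of genes for mitochondrial transcription and translation had a median of 0.04 in LM and 0.12 in SM. MRPL37, a protein of the large mitochondrial ribosomal subunit, was the highest of them in both muscles, with 0.74 in LM and 0.55 in SM, while MRPL41 (-0.29) was lowest in LM and MRPL49 (-0.28) in SM. With slide means subtracted MRPL37 had 0.26 in LM, where MRPS28 was then highest with 0.30, and 0.60 in SM, and MRPL41 had 0.15 in LM. Of 3949 probes with a gene name, the 5 whose lower value of the 2 muscles was highest were DGKQ, a diacylglycerol kinase (0.68 in LM and 0.67 in SM), DHCR7, an enzyme of cholesterol synthesis (0.58 and 0.57), CSDC2 (0.55 and 0.56), MRPL37, and CCNF, an F-box cyclin (0.55 and 0.60). With slide means subtracted, DGKQ had 0.34 in LM and 0.67 in SM, DHCR7 0.38 and 0.60, CSDC2 0.39 and 0.59, and CCNF 0.33 and 0.63.

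Markers of cell types gave the following medians. Skeletal muscle fibre markers had 0.10 in LM and 0.04 in SM, from MYH1 (0.27 and 0.17) to MYL1 (-0.22 and -0.21), and slow fibre markers had -0.20 and 0.0027, from myoglobin, MB (-0.03 and 0.28), to TNNI1 (-0.22 and -0.02). With slide means subtracted the slow fibre median turned to 0.18 in LM, with MB at 0.25 and TNNI1 at 0.04, and to -0.06 in SM, and MYL1 had 0.14 in LM. The 3 probes of the red blood cell gene HBA2 had a median of 0.35 in LM and 0.27 in SM. Adipocyte markers had -0.20 and -0.12, from CIDEC (-0.15 and -0.10) to PLIN1 (-0.27 and -0.25), and the 2 fibroblast probes, both of COL1A2, had -0.17 and -0.32. Macrophage markers had 0.31 and 0.05, with CD68 at 0.64 and 0.12 and CD14 at -0.02 and -0.02. With slide means subtracted the macrophage median in LM was -0.09 and CD68 had -0.06. The endothelial genes VWF and CDH5 had a median of 0.16 and -0.05. The part of cell composition in the levels of the mitochondrial probes was not tested.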

How the data were processed

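The members and lists were chosen with earlier results of these data known. The authors read 1-colour Agilent arrays with Feature Extraction (versions 9.5.3.1 and 9.5.1.1 per the file headers), and the deposited scanner files hold for each spot an intensity on a linear scale, with background subtracted and no normalization between arrays. The labels state 500 ng of RNA for labelling, while the methods of the study state a smaller amount. A second deposited file gives 6903 probes on the natural log scale, and differed from the natural log of the processed signal only by a constant for each array. It served as an alternative, and 0 of its columns belonged to no listed sample. The genome build behind the probes is not given in the sources used here.

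Control spots were left out. The log2 processed signal was centred on the array median over kept probes. Spots not well above background, non-uniform or saturated were set to missing, probes with over 50% missing in either muscle were dropped, and values over 3 SD from the mean of the probe were removed, which left 10987 of 15198 probes. Muscles were compared with limma 3.58.1 in R 4.3.3 (lmFit, eBayes, Benjamini-Hochberg). The study's model also held sex, carcass weight and slaughter batch, which the labels do not give, and hybridization batch, which they do not name. These terms were left out. The slide, which is known, entered only as a random block in an alternative, with statmod 1.5.0. Correlations used Python 3.11.15, NumPy 2.4.6, SciPy 1.17.1 and 100000 two-sided permutations of pigs. Mixtures were fitted with scikit-learn 1.9.0, and reading frames with Biopython 1.88. Figures used matplotlib 3.10.9 and pandas 2.3.3. On simulated data for 10987 probes, 200 of them changed, the limma step called 100% of those, with 6.54% of calls unchanged. The correlation step called 93.0% of 200 correlated probes, with 4.12% of calls uncorrelated. Simulated arrays were drawn independently, without slides or families, so these rates do not describe calls on the real arrays.

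The pairing of the muscles comes from the pig number in the labels. Over 3575 probes, the deviations of the 2 muscles of a pig had a median r of 0.08, against -0.01 for different pigs, 39 pigs were over 0.1, and 2 SM arrays correlated best with the LM array of their own pig. Named genes were every member probe, the other mitochondrial probes in the tables, the 5 named probes most like the members, and the highest and lowest gene of each list. The number of arrays limits the precision.

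Tried as alternatives were quantile normalization, centring on the 75th percentile, normexp with an offset of 50, failed spots kept, saturation not counted, no removal of outlying values, the pig or the slide as a block, the index of C-rich probes, slide means subtracted, Spearman's rho and the deposited table. The uncentred values, the slide means of SM alone, the groups of pigs, the scan days and the software versions were added after seeing the data.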

Additional observations from a re-analysis of the deposited data

How the results depend on the processing

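The 12 muscle differences kept their direction under all 11 alternatives, and the counts of calls are given only as values, since the members were listed on this contrast. All 12 were called under 9 alternatives, among them the pig as a replicate block (12 of 12). Under these 9, from 43.7% to 51.4% of all probes were called higher in SM. With the index of C-rich probes 10 were called, beside 40.7% of all probes. Without centring 7 were called, beside 20.2% of all probes (CO1 AW359405.1_100, CO2, CO3, ND5 and the G-rich ND4 probe were not). The count of probes with related muscles was 8 or 9 under every alternative except the subtraction of slide means, where it was 0 and r changed sign for CO2 (-0.020), CO3 (-0.048) and the G-rich ND6 probe (-0.0076). CO1 AW359405.1_100 was not called with quantile normalization (0.27), failed spots kept (0.10), normexp (0.27) or slide means subtracted (0.19). Among all probes, normexp called 395 positive correlations against 152, and the index of C-rich probes called 106.

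The median r of the 66 pairs moved to 0.49 in LM with failed spots kept, to 0.42 in LM with slide means subtracted, and to 0.54 in SM with normexp. For the lists in LM, subtraction of slide means gave 0.30 for complex I, 0.26 for complex IV, 0.30 for complex V, 0.18 for slow fibre, 0.24 for red blood cell and -0.087 for macrophage. Quantile normalization gave in LM 0.27 for complex I, -0.034 for slow fibre and 0.20 for macrophage, and in SM 0.16 for complex V, 0.12 for red blood cell and -0.21 for fibroblast. Normexp gave in LM 0.024 for complex V, 0.24 for red blood cell and 0.19 for macrophage, and in SM -0.16 for macrophage. Regression on the index of C-rich probes gave 0.18 for complex IV in LM, and failed spots kept gave 0.14 for red blood cell in LM. The cause of these changes was not tested, and the other 216 list values moved by less than the sampling SD of an r over 90 pigs. All 12 probes were flagged well above background on every array, but the G-rich ND6 probe went down to a processed signal of 96 in LM and 89 in SM. Matching probes to mitochondrial genes by sequence was not run, since no mitochondrial genome was used here.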
